A study of Homo sapiens with 6 samples.

Results

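The genes described here are 49 genes of DNA replication and S phase, measured in RPMI-8402, a cell line from a human T-cell leukaemia of the acute lymphoblastic kind that the labels also spell RMPI8402. They were listed by name for their function, and each was read through its brightest probe by mean intensity over the arrays, out of 19695 genes that the arrays name. A probe was found for 49 of the 49 genes, and in each case it was well above background on all 6 arrays. The 6 samples were RPMI8402 cells that had received a lentivirus carrying a control hairpin, shGATA3 (a short hairpin RNA against GATA3) or shTCF1 (a hairpin against TCF7, the gene that encodes TCF1), with 2 arrays in each of the 3 groups. All cells were sorted for EGFP 48 h after transduction, so the control cells also carried a lentiviral vector and passed through the sort. The study's methods name MISSION SHC002 as the control hairpin and a single GATA3 hairpin vector with EGFP in place of puromycin resistance, and they do not name the TCF7 hairpin vector. The cells are 1 line, and the study's text describes the 2 arrays of a group as independent experiments. The design asks what loss of either T-lineage transcription factor does to expression, here for the replication genes.

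DNA replication starts at origins where ORC, CDC6 and CDT1 load the MCM2-7 helicase in G1, and geminin (GMNN) blocks CDT1 afterwards. In S phase MCM10, CDC45 and GINS turn the loaded helicase into an active one, DNA polymerase alpha with its primase lays down primers, and polymerases delta and epsilon extend them on the ring-shaped clamp PCNA, which the RFC complex loads. RPA coats single-stranded DNA, FEN1, RNase H2 and LIG1 mature the Okazaki fragments of the lagging strand, and ribonucleotide reductase, TYMS and TK1 supply the nucleotides. Many of these genes are transcribed at the G1 to S transition under E2F factors. In cycling leukaemia cells such genes are known as markers of proliferation.

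The level of a probe is given as a normalized log2 intensity, and a change is a difference of group means on this log2 scale with its standard error (SE). A probe was called when its adjusted p from limma, corrected by the Benjamini-Hochberg method over all 31134 tested probes, was below 0.05. Before normalization the 75th percentile of the intensity was 269.6 and 287 on the control arrays, 175 and 176 on the shGATA3 arrays and 179 and 165 on the shTCF1 arrays. All 6 arrays shared 1 slide and 1 scan, with both control arrays in slide row 2 and the 4 hairpin arrays in slide row 1, so slide row and hairpin against control cannot be told apart. TCF7 read 13.96 and 13.91 in control, 14.26 and 14.27 in shGATA3 and 12.58 and 12.68 in shTCF1, and fell by 1.31 in shTCF1 (SE 0.10, adjusted p from limma 0.00393). GATA3 read 9.54 and 9.56 in control and 9.46 and 9.55 on the arrays labelled shGATA3, a change of -0.05 (SE 0.10, adjusted p from limma 0.795), so the array does not show the knockdown that this label states, and every direction for shGATA3 below belongs to the arrays so labelled. Of 15 T-lineage markers 11 were well above background on all 6 arrays, CD3D, LCK and PTCRA among them. Of 13 markers of other cells with a probe 9 were also well above background on all 6 arrays, among them PECAM1 at 11.44 and 11.38 and KRT8 at 9.54 and 9.55 in control, and EPCAM, CD22, CD33 and HBB were so on 0 arrays. Of 13 tested T-lineage markers 3 were called higher and 1 lower in shGATA3, and 2 and 2 in shTCF1. That is 30.8% in each, beside 6.84% and 16.9% of all tested probes. Of the 9 tested markers of other cells PECAM1 was called higher in shTCF1 (11.1% of them), and 0 were called by limma in shGATA3 (0 at an unadjusted p under 0.05). The log2 of the summed level of these 13 markers was 12.17 and 12.13 in control, 12.08 and 12.06 in shGATA3 and 12.55 and 12.53 in shTCF1. PECAM1, the brightest of them, weighs most in this sum and read 11.97 and 11.98 in shTCF1. Of the 9 tested markers 6 changed upwards and 3 downwards in shTCF1, with a median change of 0.03. The part of these markers in the shTCF1 results below was not tested.

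Most replication genes moved little in the cells with either hairpin. In shGATA3 against control, 1 of the 49 genes was called, the clamp loader subunit RFC3, which fell, against 6.84% of all tested probes called in either direction, 2.88% higher and 3.96% lower. In shTCF1 against control 5 genes were called and all 5 fell, RFC3, the polymerase subunits POLA2, POLE2 and POLD2, and the ribonucleotide reductase subunit RRM1, against 16.9% of all tested probes, 7.21% higher and 9.73% lower. The share of the genes called was below that of all tested probes in both comparisons, and for falls alone it was 2.04% in shGATA3 and 10.2% in shTCF1, the latter close to the background of 9.73%. This order turned with normexp and quantile normalization, where 7 of 49 genes beside 13.7% of all probes were called in shGATA3 and 16 of 49 beside 24.8% in shTCF1, and in shTCF1 with no filter on dim probes, where 3 of 49 were called beside 3.98%. At an unadjusted p under 0.05 the numbers were 7 and 10 of 49, beside 8257 and 10909 of the 31134 tested probes.

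The small changes leaned downwards. The median change over the 49 genes was -0.13 in shGATA3 and -0.15 in shTCF1, beside -0.01 and -0.02 over all tested probes and -0.03 and -0.04 over the 3748 tested probes whose mean level lay within the interquartile range of the 49. The change was below 0 for 38 of 49 genes in shGATA3 and for 34 of 49 in shTCF1, where 16007 and 16209 of the 31134 tested probes were below 0. These medians stayed below 0 under 4 other normalizations of the scanner values, between -0.14 and -0.08 in shGATA3 and between -0.16 and -0.10 in shTCF1. The groups did not overlap for 34 genes in shGATA3, 26 of them lower and 8 higher, and for 38 genes in shTCF1, 28 lower and 10 higher, against 60.2% and 66.9% of all tested probes. By direction, 31.1% of all tested probes were lower and 29.1% higher without overlap in shGATA3, and 35.1% and 31.8% in shTCF1. Without overlap were 69.4% and 77.6% of the 49 genes, and 66.2% and 72.8% of the 3748 probes in their brightness range. The lower shares were 53.1% and 57.1% of the genes, and 36.8% and 40.6% of those 3748 probes. The 2 hairpin groups share their control arrays, so that their lean is not independent. In bulk RNA, fewer cells in S phase and less RNA per cell cannot be told apart.

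**Figure D1:**
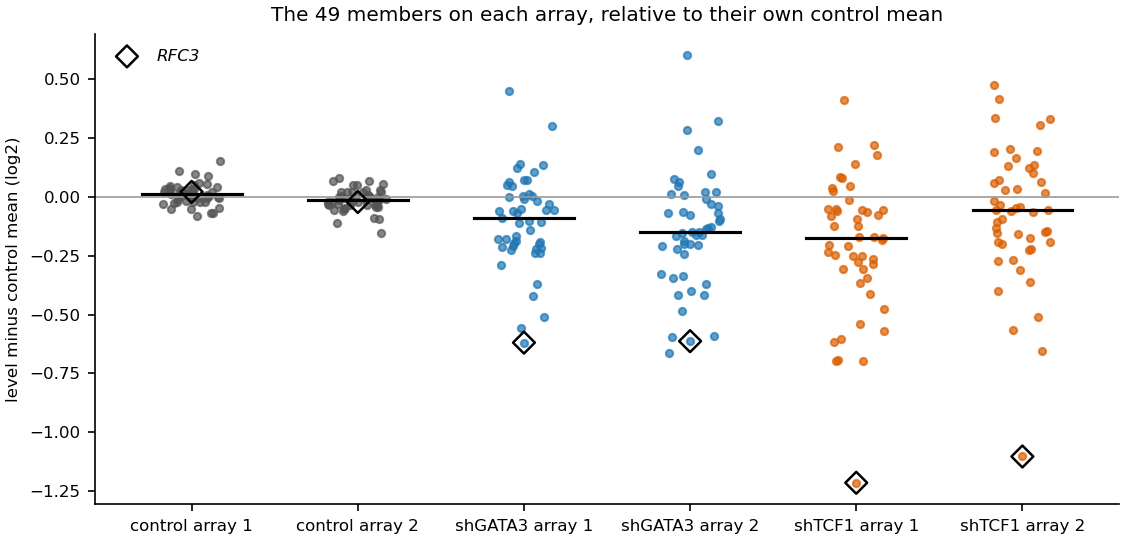
Levels of the 49 genes on each of the 6 arrays (x axis) as the difference from the gene's own mean over the 2 control arrays (y axis, log2), with 1 dot per gene, a black bar at the median and a diamond around RFC3. The medians of the hairpin arrays lie between -0.175 and -0.0573, below those of the control arrays, and RFC3 is the lowest gene on both shTCF1 arrays.

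By array, the median difference from the control mean was -0.0883 and -0.147 on the shGATA3 arrays and -0.175 and -0.0573 on the shTCF1 arrays, as the plot of the genes by array shows. The 2 shTCF1 arrays lay on either side of the 2 shGATA3 arrays. Between 30 and 39 of the 49 genes lay below their control mean on a hairpin array.

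RFC3 had the largest change of the 49 genes in shGATA3 and in shTCF1. It encodes a small subunit of replication factor C, the complex that opens PCNA and closes it around primed DNA. Its level was 10.17 and 10.12 in control, 9.53 and 9.53 in shGATA3 and 8.93 and 9.04 in shTCF1. The 3 groups were fully apart, in the order control, shGATA3, shTCF1. RFC3 fell by 0.62 in shGATA3 (SE 0.10, adjusted p from limma 0.0256), to 65.3% of control, and by 1.16 in shTCF1 (SE 0.10, adjusted p from limma 0.00464), to 44.8% of control. The shTCF1 call was kept in 6 of 6 fits that left out an array, with adjusted p from limma up to 0.0326, and the shGATA3 call in 2 of 6, those without an shTCF1 array, with adjusted p up to 0.153. A dimmer probe for RFC3 read 8.91 and 8.83 in control, 8.41 and 8.32 in shGATA3 and 8.17 and 8.06 in shTCF1, and was called lower against control in both as well, by -0.50 and -0.76.

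The other clamp and clamp loader genes shared the sign of RFC3 at a much smaller size. For 6 of these 6 genes the 2 arrays of each hairpin group lay below both control arrays, against 31.1% and 35.1% of all tested probes lower without overlap, and the median change was -0.20 in shGATA3 and -0.20 in shTCF1. All 6 were also below 0 under the 4 other normalizations of the scanner values. PCNA, the sliding clamp, read 14.28 and 14.26 in control, 14.07 and 14.20 in shGATA3 and 13.96 and 14.11 in shTCF1. Its change was -0.13 (SE 0.11, adjusted p from limma 0.474) and -0.23 (SE 0.11, adjusted p from limma 0.189), which did not pass the test. A dimmer PCNA probe changed by -0.31 in shGATA3 (adjusted p from limma 0.127). In shTCF1 that probe fell by 0.42 and was called (adjusted p from limma 0.0429). The large subunit RFC1 and the small subunits RFC2, RFC4 and RFC5 changed by -0.25 to -0.06 in shGATA3 and by -0.21 to -0.09 in shTCF1, with 0 calls among them. No test compared RFC3 with its partner subunits.

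**Figure D2:**
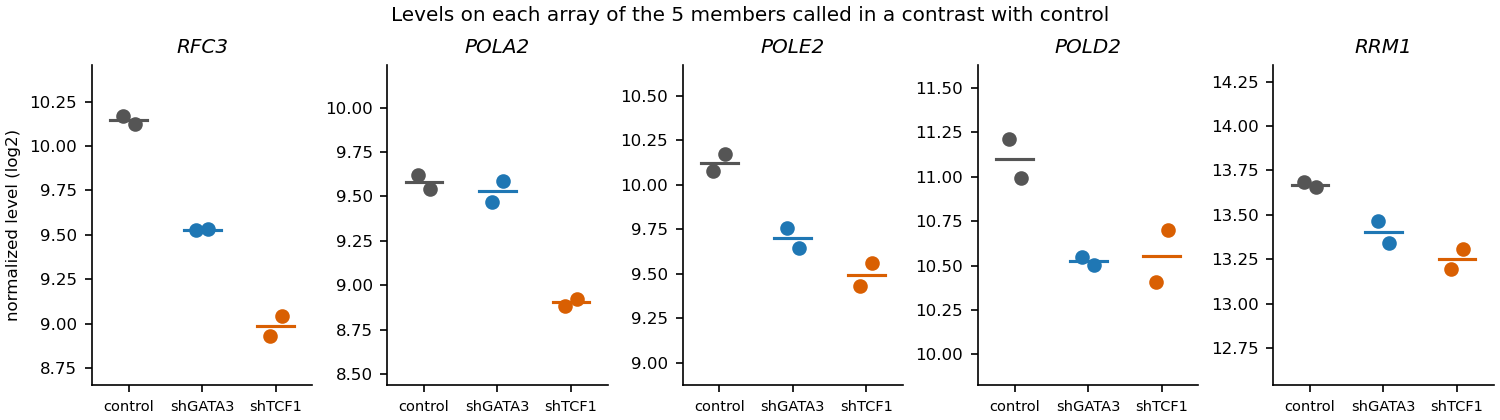
Normalized log2 level (y axis, each panel spanning the same range of 1.8 log2 units) on the 2 arrays of each group (x axis) for the 5 genes called against control, with a bar at the group mean. RFC3 steps down from control to shGATA3 to shTCF1, POLA2 is low in shTCF1 alone, and POLE2, POLD2 and RRM1 are below control in both hairpin groups.

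The accessory subunits POLA2, POLE2 and POLD2 of the replicative polymerases fell in shTCF1. POLA2, the regulatory B subunit of polymerase alpha, read 9.62 and 9.54 in control, 9.47 and 9.59 in shGATA3 and 8.88 and 8.92 in shTCF1. Control and shGATA3 overlapped and shTCF1 lay below both. POLA2 fell by 0.68 in shTCF1 (SE 0.10, adjusted p from limma 0.0137), to 62.6% of control, and changed by -0.05 in shGATA3 (SE 0.10, adjusted p from limma 0.784).

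POLE2, the second subunit of the leading-strand polymerase epsilon, read 10.08 and 10.17 in control, 9.75 and 9.64 in shGATA3 and 9.43 and 9.56 in shTCF1. It fell by 0.63 in shTCF1 (SE 0.11, adjusted p from limma 0.0186), and its change of -0.43 in shGATA3 (SE 0.11, adjusted p from limma 0.074) did not pass. POLD2, an accessory subunit of the lagging-strand polymerase delta, read 11.21 and 10.99 in control, 10.55 and 10.51 in shGATA3 and 10.41 and 10.70 in shTCF1. It fell by 0.55 in shTCF1 (SE 0.14, adjusted p from limma 0.0496) and its change of -0.58 in shGATA3 (SE 0.14, adjusted p from limma 0.0676) did not pass, although it was the larger of the 2. The 2 hairpin groups overlapped for POLD2.

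The catalytic subunits are given beside them. POLA1 changed by 0.09 in shGATA3 and -0.03 in shTCF1, POLD1 by 0.06 and -0.05, and POLE by -0.32 and -0.52, the last with SE 0.17 and an adjusted p from limma of 0.0837. The difference between accessory and catalytic subunits was not tested. The accessory subunit POLD3 changed by -0.04 and -0.27 and was not called. Of the accessory subunits outside the 49 genes, POLE3 changed by -0.16 and -0.00403, POLE4 by -0.17 and -0.21 and POLD4 by 0.21 and 0.25, with 0 calls. The primase subunits PRIM1 and PRIM2 changed by -0.17 and -0.06 in shGATA3 and by -0.11 and -0.05 in shTCF1. In shTCF1 the change was below 0 for 9 of the 9 polymerase and primase genes, with a median of -0.27, and for 7 of 9 under 3 of the 4 other normalizations. In shGATA3 it was below 0 for 7 of 9, with a median of -0.06.

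These calls depended on the number of arrays. POLA2 and POLE2 were called in 2 of 6 fits without an array, those without an shGATA3 array, with adjusted p from limma up to 0.0877 and 0.0978 in the rest. POLD2 was called in 0 of 6, with adjusted p from limma of 0.063 to 0.222, whichever array was left out. Over all probes fewer were called as well in those fits, 865 to 4930 against 5274 with all 6 arrays.

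**Figure D3:**
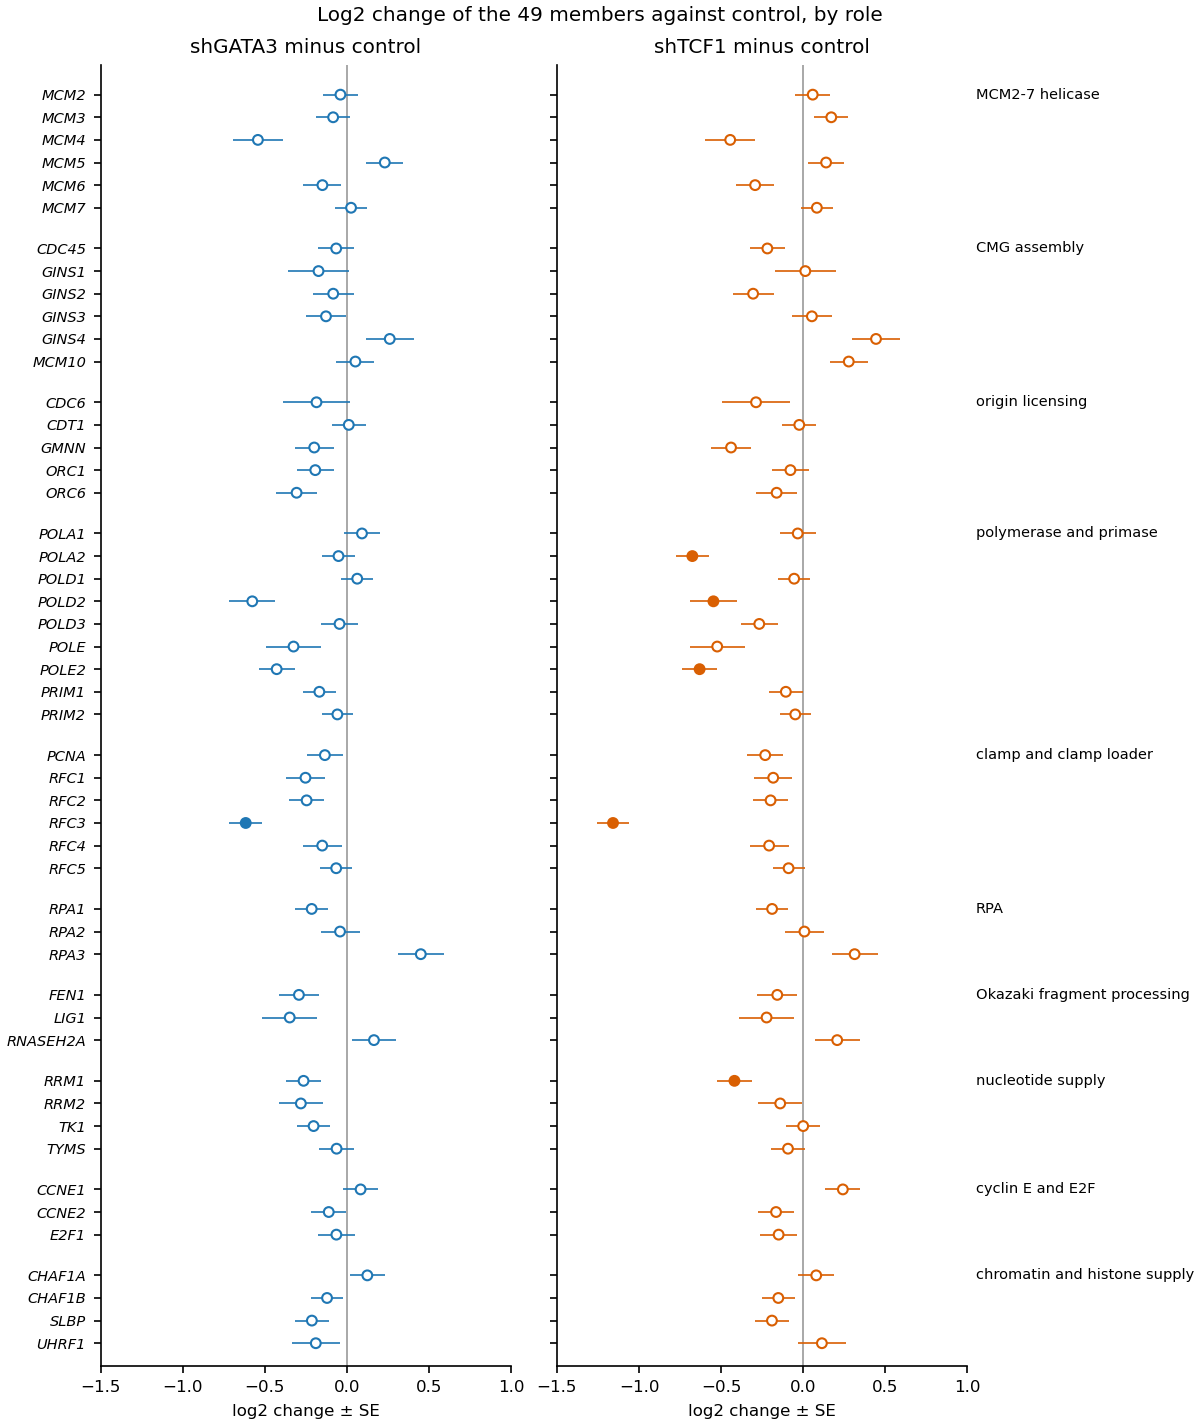
Log2 change against control with its SE (x axis) for each of the 49 genes, grouped by role (y axis), in shGATA3 (left) and shTCF1 (right), with filled circles for called genes. The filled circles are RFC3 on the left and RFC3, POLA2, POLE2, POLD2 and RRM1 on the right, all below 0, and GINS4 and RPA3 are the highest of the open ones.

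The windows before the start sites of 4 of the 5 genes called in shTCF1 are shown as examples. POLD2's window lies within the annotated POLD2 gene and is not shown, and it held no E2F word. The sequences are the 250 bases upstream of the start in RefSeq's promoter table of the human assembly GRCh38.p14, 5′ to 3′ on the gene's own strand, at chr13:33817899-33818148 (RFC3, + strand), chr11:65261712-65261961 (POLA2, + strand), chr14:49688215-49688464 (POLE2, - strand) and chr11:4094435-4094684 (RRM1, + strand). Capitals mark a match, on either strand, to 1 of the 4 words of the E2F motif that were searched (TTTCCCGC, TTTGGCGC, TTTCGCGC and TTTGCCGC).
RFC3: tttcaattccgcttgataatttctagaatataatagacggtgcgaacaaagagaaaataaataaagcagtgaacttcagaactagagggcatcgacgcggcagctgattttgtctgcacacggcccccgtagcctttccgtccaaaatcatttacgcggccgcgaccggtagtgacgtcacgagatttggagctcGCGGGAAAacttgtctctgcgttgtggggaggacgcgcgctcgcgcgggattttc
POLA2: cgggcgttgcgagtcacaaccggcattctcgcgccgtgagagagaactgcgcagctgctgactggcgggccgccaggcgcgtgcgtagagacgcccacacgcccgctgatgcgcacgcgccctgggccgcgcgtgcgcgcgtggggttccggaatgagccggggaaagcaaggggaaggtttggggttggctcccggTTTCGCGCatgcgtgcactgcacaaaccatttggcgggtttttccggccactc
POLE2: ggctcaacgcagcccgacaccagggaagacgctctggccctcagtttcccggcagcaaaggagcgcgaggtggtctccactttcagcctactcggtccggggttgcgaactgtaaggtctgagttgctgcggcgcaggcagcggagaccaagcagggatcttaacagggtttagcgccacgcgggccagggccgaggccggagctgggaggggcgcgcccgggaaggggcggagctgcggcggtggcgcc
RRM1: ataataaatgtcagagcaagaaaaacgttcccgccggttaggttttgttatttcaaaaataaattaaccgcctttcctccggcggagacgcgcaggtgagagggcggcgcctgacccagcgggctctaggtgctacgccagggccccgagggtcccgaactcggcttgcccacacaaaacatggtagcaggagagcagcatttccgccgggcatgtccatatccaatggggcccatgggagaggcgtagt
RFC3 held TTTCCCGC on the opposite strand, beginning 55 bases before the start, and POLA2 held TTTCGCGC on its own strand, beginning 53 bases before the start. The windows of POLE2 and RRM1 held no such word.

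The table had 54 windows for 42 of the 49 genes. An E2F word occurred in 16 of the 54 (29.6%), against 2.79% of all 35116 windows of the same length. The genes with such a word were CDT1, E2F1, GINS2, GMNN, LIG1, MCM3, MCM6, MCM7, PCNA, POLA1, POLA2, POLE, RFC3, TYMS and UHRF1, of which RFC3 and POLA2 were called and the other 13 were not. The CCAAT word bound by NF-Y occurred in 59.3% of the windows of the 42 genes, against 32% of all windows. All words were searched on both strands, and none contains another. The word AGATAA of GATA factors occurred in 0 of 54 windows, against 9.17% of all, and CTTTGA of the TCF and LEF family in 3 of 54 (5.56%), against 11.2% of all. Base composition was not matched in these shares, and a match is a description of letters rather than a site.

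The MCM2-7 helicase was split. MCM4 read 11.45 and 11.38 in control, 11.00 and 10.76 in shGATA3 and 10.80 and 11.15 in shTCF1. Both hairpin groups lay below control and overlapped each other. Its change was -0.54 (SE 0.15, adjusted p from limma 0.0938) and -0.44 (SE 0.15, adjusted p from limma 0.0995), neither of which passed.

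MCM3 read 14.39 and 14.40 in control, 14.38 and 14.25 in shGATA3 and 14.54 and 14.60 in shTCF1, with shGATA3 below and shTCF1 above control. The changes of MCM3 were -0.08 and 0.17. MCM2 overlapped between all groups (-0.04 and 0.06), MCM5 was above control in both (0.23 and 0.14), MCM6 below control in both (-0.15 and -0.29), and MCM7 changed by 0.03 and 0.08. These values are from the brightest probes. A dimmer MCM5 probe changed by -0.05 and -0.17 and a dimmer MCM7 probe by -0.48 and -0.34, and neither was called. None of the 6 subunits was called in either comparison, and the median over the 6 was -0.06 in shGATA3 and 0.07 in shTCF1, the latter below 0 under 2 of the 4 other normalizations.

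Among the genes that activate the helicase, 4 of 6 changes were below 0 in shGATA3 and 2 of 6 in shTCF1, with 0 calls. The shTCF1 count was 3 of 6 with quantile normalization, with normexp and quantile normalization and with VSN on the raw signal. GINS4, a subunit of the GINS tetramer, read 10.97 and 10.86 in control, 11.36 and 10.99 in shGATA3 and 11.33 and 11.39 in shTCF1. It had the largest positive change of the 49 genes in shTCF1, 0.44 (SE 0.15, adjusted p from limma 0.0896), which did not pass. GINS1, GINS2 and GINS3 changed by -0.17, -0.08 and -0.13 in shGATA3 and by 0.01, -0.30 and 0.05 in shTCF1, so the 4 subunits of the complex did not share a sign in shTCF1. The changes of GINS1 and GINS3 in shTCF1 were smaller than their SE (0.18 and 0.12). CDC45 changed by -0.06 and -0.22, and MCM10 by 0.05 and 0.28.

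Of the origin licensing genes, GMNN stood nearest to the threshold. Geminin holds back relicensing by binding CDT1. GMNN read 13.30 and 13.30 in control, 13.11 and 13.09 in shGATA3 and 12.73 and 12.99 in shTCF1, with the 3 groups apart. Its change was -0.20 (SE 0.12, adjusted p from limma 0.342) in shGATA3 and -0.44 (SE 0.12, adjusted p from limma 0.0567) in shTCF1. CDT1 itself changed by 0.01 and -0.02, and ORC1, ORC6 and CDC6 by -0.31 to -0.18 in shGATA3 and by -0.29 to -0.08 in shTCF1.

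RPA3, the smallest subunit of the RPA trimer, read 13.35 and 13.36 in control, 13.65 and 13.96 in shGATA3 and 13.57 and 13.77 in shTCF1. It lay above control on 4 of 4 hairpin arrays and had the largest positive change of the 49 genes in shGATA3, 0.45 (SE 0.14, adjusted p from limma 0.114), with 0.31 in shTCF1 (SE 0.14, adjusted p from limma 0.172). RPA1, the large subunit, changed by -0.21 and -0.19, and RPA2 by -0.04 and 0.01. None of these passed the test.

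For Okazaki fragment processing, the flap nuclease FEN1 read 11.09 and 11.00 in control, 10.81 and 10.70 in shGATA3 and 10.77 and 11.00 in shTCF1. Its changes were -0.29 and -0.16. LIG1, the ligase that seals the fragments, changed by -0.35 and -0.22, and RNASEH2A, the catalytic subunit of RNase H2, by 0.17 and 0.21. None of the 3 was called.

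RRM1, the large subunit of ribonucleotide reductase, read 13.68 and 13.66 in control, 13.47 and 13.34 in shGATA3 and 13.19 and 13.31 in shTCF1. The 3 groups were apart in that order. RRM1 fell by 0.42 in shTCF1 (SE 0.11, adjusted p from limma 0.0465), to 74.8% of control, and changed by -0.26 in shGATA3 (SE 0.11, adjusted p from limma 0.182). Its call was kept in 0 of 6 fits without an array (adjusted p from limma 0.0531 to 0.202). The small subunit RRM2 changed by -0.28 and -0.14, and the thymidylate enzymes TYMS and TK1 by -0.06 and -0.20 in shGATA3 and by -0.09 and 0.00 in shTCF1.

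CCNE1, a cyclin E gene whose product drives entry into S phase, read 8.02 and 8.15 in control, 8.16 and 8.18 in shGATA3 and 8.26 and 8.39 in shTCF1, with changes of 0.08 and 0.24. CCNE2 changed by -0.11 and -0.17 and E2F1 by -0.06 and -0.15. SLBP, which binds histone mRNA, read 12.77 and 12.66 in control, 12.49 and 12.51 in shGATA3 and 12.46 and 12.58 in shTCF1, with changes of -0.21 and -0.19. The chromatin assembly subunits CHAF1A and CHAF1B changed by 0.13 and -0.12 in shGATA3 and by 0.08 and -0.15 in shTCF1, and UHRF1, which couples DNA methylation to replication, by -0.19 and 0.11. None of these 7 genes was called.

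The direct comparison of shGATA3 with shTCF1 uses neither control array as a reference. Of the 49 genes 2 were called, both higher in shGATA3, against 6.18% of all tested probes in either direction, 3.58% higher and 2.6% lower. POLA2 was higher by 0.62 (SE 0.10, adjusted p from limma 0.0252), a 1.54-fold difference, and RFC3 by 0.54 (SE 0.10, adjusted p from limma 0.0347), a 1.46-fold difference. Both calls were lost in 6 of 6 fits without an array, with adjusted p from limma of 0.0599 to 0.0988 for POLA2 and 0.084 to 0.116 for RFC3. The third gene with an unadjusted p under 0.05 was MCM3, lower in shGATA3 by -0.25 (SE 0.10, adjusted p from limma 0.208). Of the 31134 tested probes 7297 had such a p.

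The median difference over the 49 genes in this comparison was -0.01, with 25 of 49 below 0. The groups did not overlap for 17 genes, 10 higher and 7 lower in shGATA3, against 52% of all tested probes. For the genes other than these 2 the difference between the hairpins lay between -0.30 (UHRF1) and 0.24 (GMNN).

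Several of the genes had more than 1 probe, and these did not always read alike. There were 12 further probes for 11 of the genes. In shGATA3 2 of the 12 were called, both lower (PRIM2 and RFC3), and in shTCF1 6 were called, 5 lower (CCNE2, CHAF1A, PCNA, PRIM2 and RFC3) and 1 higher (UHRF1), beside 6.84% and 16.9% of all tested probes. The change was below 0 for 11 of the 12 in each. In the direct comparison 0 of 12 were called, and the dimmer RFC3 probe differed by 0.25 there (adjusted p from limma 0.219).

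A dimmer UHRF1 probe read 10.31 and 10.25 in control, 10.82 and 10.62 in shGATA3 and 11.21 and 11.11 in shTCF1, a rise of 0.88 in shTCF1 (adjusted p from limma 0.00983) where the brightest probe changed by 0.11. A dimmer CHAF1A probe fell by 0.65 (adjusted p from limma 0.0253) where the brightest changed by 0.08. One of the dimmer PRIM2 probes fell by 0.54 and 0.71 in shGATA3 and shTCF1 where the brightest changed by -0.06 and -0.05. The files place these probes on the same gene but do not show which transcripts each one detects, and that was not tested.

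**Figure D4:**
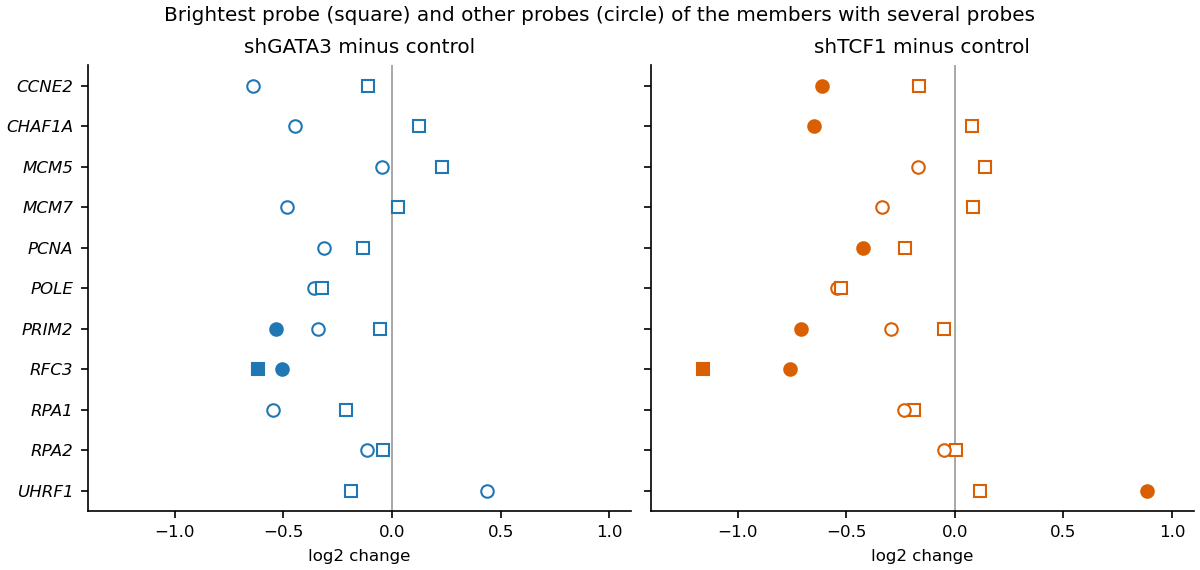
Log2 change against control (x axis) for each probe of the 11 genes with more than 1 probe (y axis), in shGATA3 (left) and shTCF1 (right), with squares for the brightest probe, circles for the others and filled symbols for called probes. RFC3 is the gene whose brightest and dimmer probes are called in both panels, and the UHRF1 circle lies at 0.88 on the right while its square lies at 0.11.

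Other replication genes gave few calls. Of 54 further genes of replication, fork protection and the E2F pathway, all 54 tested, 1 was called lower and 0 higher in shGATA3, and 5 were called lower and 2 higher in shTCF1, with medians of -0.11 and -0.14. The shares called were 1.85% and 13%, beside 6.84% and 16.9% of all tested probes. E2F3, an activator E2F, read 11.63 and 11.74 in control, 11.18 and 11.13 in shGATA3 and 11.08 and 11.15 in shTCF1. It fell by 0.52 (SE 0.10, adjusted p from limma 0.0397) and 0.57 (SE 0.10, adjusted p from limma 0.0201), with the hairpin groups overlapping. The 2 that rose in shTCF1 were SAMHD1, a dNTP hydrolase, by 0.60 (SE 0.10, adjusted p from limma 0.0162), and ASF1B, a histone chaperone, by 0.60 (SE 0.11, adjusted p from limma 0.0194). In the direct comparison 0 of the 54 were called by limma. At an unadjusted p under 0.05 there were 6, beside 7297 of the 31134 tested probes.

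Genes of mitosis gave 1 call. Of 19 tested, PLK1, a mitotic kinase, rose by 0.57 in shTCF1 (SE 0.12, adjusted p from limma 0.0297), 5.26% of the list beside 16.9% of all tested probes. Of the 19 genes 0 were called by limma in shGATA3 or in the direct comparison, with 3 and 2 at an unadjusted p under 0.05. In these comparisons 8257 and 7297 of the 31134 tested probes had such a p. Their medians were -0.05 in shGATA3 and -0.08 in shTCF1. Of 12 tested G1 cyclins, their kinases, CDK inhibitors and antiproliferative genes, CDKN2A and BTG2 rose in shTCF1, by 0.73 (SE 0.14, adjusted p from limma 0.0243) and 0.54 (SE 0.12, adjusted p from limma 0.0319), 16.7% of the list beside 16.9% of all tested probes, and 0 were called by limma in shGATA3 or directly, with 3 and 4 at an unadjusted p under 0.05. CDKN2A codes for p16 and p14ARF, and the probe carries the accession of 1 of its transcripts. The medians of this list were 0.19 and 0.06. The part of a changed cell cycle in the replication genes was not tested, since no cell cycle measurement accompanies the arrays.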

How the data were processed

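Expression was measured on 6 one-colour Agilent arrays. Per the file headers, the deposited intensity values (processed, raw spot and local background signal) came from Agilent Feature Extraction 10.7.1.1, although the labels give 9.1. The files also hold other columns of marks (0 or 1), per the file headers. The authors deposited a normalized matrix too, in log2 units by its values and VSN-normalized by their methods, whose scale and centring are not stated. It served as an alternative only.

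Control spots were left out, which gave 57176 probes, 25725 of them named through accessions in RefSeq GRCh38.p14. Outlier spots were removed and the other spots of a probe averaged. The 71 probes without a usable spot on each array were dropped, leaving 57105. The scanner files use hg19, so coordinates are printed for RefSeq's promoter windows alone. Intensities were normalized with a reimplemented VSN model (trimming quantile 0.9, 7 iterations, 5 strata), which fits an offset and a scale per array. A probe entered the test if some group had it well above background on both its arrays (31134 probes). limma 3.58.1 in R 4.3.3 was fitted to all 6 arrays by group (lmFit and eBayes, two-sided), with 3 residual and 2.97 prior degrees of freedom. A permutation test of 2 arrays against 2 is limited to an exact two-sided p of 0.333 or more, so calls rest on the spread pooled over probes.

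All 49 genes may be named, called genes and the leading gene of each role with values, and other lists by counts with up to 3 leading called genes. The 49 genes and all lists were chosen with earlier results of these data known. One marker of other cells is not reported here. The fit was tested on simulated data. The alternatives were other normalizations, filters, spread estimates and probe rules, the deposited matrix, the replicate block and leaving out each array.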

Additional observations from a re-analysis of the deposited data

Results flagged for a closer look

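The effect of the 2 hairpins differed for POLA2 and RFC3 when shGATA3 and shTCF1 were compared directly. POLA2 was higher in shGATA3 by 0.62 and RFC3 by 0.54 on the log2 scale (adjusted p from limma 0.0252 and 0.0347). For both genes each shGATA3 array lay above each shTCF1 array, as for 10 of the 49 genes and 25.9% of all tested probes. Neither call was kept when an array was left out.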

How the results depend on the processing

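With 2 arrays per group the number of arrays limits the precision, and all p-values measure the spread between these arrays. Leaving out each array in turn gave 0 to 1 genes called in shGATA3, 1 to 4 in shTCF1 (1 without either control or either shTCF1 array, and 4 without either shGATA3 array, 3 lower and GINS4 higher) and 0 in the direct comparison, with medians of -0.147 to -0.0882, -0.175 to -0.0573 and -0.0424 to 0.0747. The call of RFC3 in shTCF1 was lost in 1 of 17 alternatives, the deposited matrix. The cause of the differences below was not tested.

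Each count is followed by the share of all probes called in the same fit. In shGATA3 the count of 1 (6.84%) became 7 with normexp and quantile normalization (13.7%), 4 with VSN on the raw signal (10.6%), 2 with probes well above background on all 6 arrays (9.79%), 5 with an intensity trend (12.6%), and 0 with no filter on dim probes (0.981%) or the deposited matrix (0%). In shTCF1 the count of 5 (16.9%) became 3 with 75th percentile scaling (15.6%), 16 with normexp (14 lower, 2 higher, 24.8%), 8 with VSN on the raw signal (21.6%), 9 with the trend (23.6%), 3 with no filter (3.98%) and 0 with the deposited matrix (0%). In the direct comparison the count of 2 (6.18%) became 0 with the deposited matrix (0%), with no filter (1.58%) or with only these 2 groups in the fit (3.9%), and 1 with the mean of all probes of a gene (6.27%). In the deposited matrix the shGATA3 median was -0.0459 and POLE2 in shTCF1 turned to 1.72. With the replicate block the counts were 0 (4.27%), 3 (12.4%) and 0 (4.13%). The replicate numbers were not taken as pairs, since deviations of same-numbered arrays correlated by -0.04, -0.01 and 0.05. A slide or scan block could not be fitted, as all 6 arrays share both.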

Other observations

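The columns of the deposited matrix were set against the scanner values over probes well above background on all 6 arrays. The column named for control replicate 1 followed the control replicate 2 array (r = 0.999, against 0.994 for its own), and the column for shGATA3 replicate 1 followed the shGATA3 replicate 2 array (r = 0.999, against 0.993). The column for control replicate 2 reached r = 0.733 with any array and the column for shGATA3 replicate 2 r = 0.990, while both shTCF1 columns followed their own arrays (r = 0.999). These correlations are across probes, which are not independent replicates.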
